A study of Mus musculus with 6 samples.

Results

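Circular RNAs that were listed by their genome coordinates were examined in mouse hippocampus at an age of 6 months. A circular RNA (circRNA) forms by back-splicing, in which the spliceosome joins a downstream 5′ splice site of a transcript to an upstream 3′ splice site, so that the stretch between them closes on itself and has no free end. Such circles resist exonucleases, are abundant in neurons and are made from exons of protein-coding genes in most known cases, and RNA-binding proteins or inverted repeats in the flanking introns can promote them. The circRNA tables held 2246 rows, of which 1989 carried only a database number. The other 11.4%, with 144 circles on the minus strand and 113 on the plus strand, carried an identifier made of chromosome, start, end and strand. These coordinate-listed rows were taken by the form of the identifier alone, without reference to their counts.

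There were 3 libraries labelled WT, from wild-type mice, and 3 labelled APP/PS1, from mice that carry the APP695swe and PS1-dE9 transgenes of familial Alzheimer's disease. Age and tissue were the same throughout. The labels name no strain background, sex, litter, transgene promoter or batch. They do not tell whether each replicate is its own animal, and the p-values therefore reflect the spread among these libraries alone, which may be technical. The App gene, which the transgene carries, was listed for WT replicates 1 to 3 at 69.8, 68.5 and 145.6 FPKM. For APP/PS1 replicates 1 to 3 the values were 153.1, 71.0 and 166.2 FPKM. Prnp split the libraries the same way, with 188.1, 181.5 and 457.2 against 471.6, 198.6 and 463.8 FPKM. Both genes went against the label in 2 libraries, the one labelled WT replicate 3 and the one labelled APP/PS1 replicate 2, and the comparison by label is also given without this pair. Total circRNA reads ran from 13998 to 19584 per library, 1 read was worth 51.1 to 71.4 CPM (reads scaled to 1000000 circRNA reads per library), and no pair of libraries within a label was so alike as to be 1 library deposited again (chi-square per degree of freedom 2.06 to 2.30). The neuronal genes Rbfox3 and Snap25 were listed in every library (31.6 to 35.3 and 161.1 to 178.8 FPKM), as were the dentate granule marker Prox1 and the CA1 marker Wfs1. Choroid plexus Ttr was listed at 805.6 to 1321 FPKM. Reads below are in the order of replicates 1 to 3, WT labels first. What a read was counted over, the back-splice junction or the whole circle, is not stated in the labels, so levels of circles are reads or CPM per circle and not per length.

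No genome was at hand, so the sequence at a circle's end could be read only where the end fell inside a RefSeq promoter window (250 bases before to 50 after an annotated start, build GRCm38.p6). This was so for 3 circles, and these ends are shown because they carry the splice-site letters and fix how the deposited coordinates are to be read. Each line gives 40 bases outside the circle and 14 bases inside it on the circle's strand, 5′ to 3′, and capitals mark the 2 bases of the flank that touch the circle.
Fat1, 5′ end of chr8:44950195-44953481 on the plus strand, letters of chr8:44950156-44950209: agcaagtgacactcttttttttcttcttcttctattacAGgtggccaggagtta
Ndst3, 5′ end of chr3:123627958-123672477 on the minus strand, letters of chr3:123672464-123672517: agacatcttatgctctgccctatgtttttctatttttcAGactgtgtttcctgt
Lrp11, 3′ end of chr10:7596103-7608639 on the plus strand, letters of chr10:7608626-7608679: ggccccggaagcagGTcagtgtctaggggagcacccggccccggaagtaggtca

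Both 5′ ends followed an AG after a run rich in T and C, the letters of a 3′ splice site, and the 3′ end was followed by GT, the first letters of a 5′ splice site. AG stood at the same place in 7.57% of all 32851 promoter windows for Fat1 and in 6.07% for Ndst3, and GT in 4.46% for Lrp11. A match of this kind is a description of the letters. The AG of Fat1 lies next to the circle only if the deposited start is read as 0-based, so that the first base of a circle is the deposited start plus 1, while the deposited end is the last base. Coordinates are printed as deposited. The Lrp11 end lay in the window of another gene, Gm16254, on the minus strand. There the word GGAAGCAGGTCAG, which crosses the end, occurred 7 times with both strands counted. It occurred in 4 of all 32851 windows, so the same letters recur around this end. Ndst3, an enzyme that modifies heparan sulfate, had its circle's first base at an annotated start of the gene (chr3:123672477), and Fat1, an atypical cadherin, had an annotated start (chr8:44950208) 12 bases inside the circle. These circles had 8, 7 and 1 against 6, 8 and 6 reads for Fat1, 1, 7 and 1 against 0, 0 and 2 for Ndst3, and 5, 0 and 3 against 0, 0 and 1 for Lrp11.

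Mature miRNAs of the RefSeq table lay inside the span of 2 circles, on the circle's strand, and are shown with the seed (bases 2 to 8) in capitals. Their seeds differ from one another.
mmu-miR-1898: aGGUCAAGguucacaggggauc
mmu-miR-3092-5p: aGGGGAAAaugccuuucuccca
mmu-miR-3092-3p: gAAUGGGGcuguuuccccucc

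The hairpin of miR-1898 (chr15:12171492-12171574) lay 280 bases from the end of a circle of Zfr, a zinc-finger RNA-binding protein gene (chr15:12136395-12171854). That circle had 5, 2 and 4 against 2, 2 and 2 reads. The hairpin of miR-3092 (chr3:27584900-27584995) lay deep inside a circle of Fndc3b (chr3:27537948-27643089), 46952 and 58094 bases from its deposited ends, with 0, 0 and 2 against 3, 7 and 1 reads. Whether the mature circles keep these stretches or lose them as introns was not analysed here.

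Together the coordinate-listed circles took 1221, 1477 and 1520 reads under the WT label and 1437, 1349 and 1599 under the APP/PS1 label. That was 8.72% (exact Clopper-Pearson 95% interval 8.26% to 9.20%), 8.28% (7.88% to 8.69%) and 8.06% (7.67% to 8.45%) of circRNA reads under the WT label. Under the APP/PS1 label it was 7.34% (6.98% to 7.71%), 7.47% (7.09% to 7.86%) and 8.22% (7.84% to 8.62%). The labels overlapped, at 8.35% ± 0.339 against 7.68% ± 0.477 (SD, n = 3 each), and the intervals cover counting error only. Every row of either class had at least 8 reads over the 6 libraries, so the tables had been limited near that total. The coordinate-listed circles were the scarcer class in these tables, with a median of 3.0 reads per library (quartiles 2.33 and 5.0, highest 60.8) against 4.5 (3.0 and 8.17, highest 222.7) for the numbered ones. Only 8 of the 100 most abundant circRNAs had coordinates, and the first of these ranked 24th.

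Detection followed the low counts. In each library 202 to 209 of the circles (78.6% to 81.3%) had a read, against 89.1% to 92.8% of the numbered circRNAs. Reads were present in all 6 libraries for 103 circles (40.1%), against 1313 numbered circRNAs (66.0%), and 61 circles had at least 2 reads in every library. A further 65 were seen in 5 libraries, 44 in 4, 33 in 3, 10 in 2 and 2 in 1 library. A count of 0 allows up to 3 reads, or 153.2 to 214.3 CPM, so absence from a library was within the depth for most of these circles.

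A small set of hosts held much of the signal. The 12 most abundant circles took 2567 of the 8603 reads (29.8%) and came from 7 genes, led by Glcci1, a gene known as glucocorticoid-induced, and Atxn1, the gene of spinocerebellar ataxia type 1. The most abundant circle, Glcci1 chr6:8537816-8582790, had 48, 60 and 61 reads under the WT label and 69, 50 and 77 under the APP/PS1 label. A second Glcci1 circle with the same 5′ end, chr6:8537816-8579739, had 33, 50 and 51 against 28, 45 and 76 reads. For both circles the labels overlapped.

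Atxn1 gave 4 of the 12. Its most abundant circle, chr13:45795508-45956575, had 51, 57 and 42 against 36, 50 and 64 reads, followed by chr13:45852327-45956575 with 41, 47 and 43 against 32, 24 and 78. The circle chr13:45697820-45956575 had 20, 30 and 33 against 48, 17 and 30 reads. In these 3 the APP/PS1-labelled libraries spread more widely than the WT-labelled ones and overlapped them. The other Atxn1 circle, chr13:45735114-45956575, had 13, 17 and 18 against 27, 29 and 29 reads, or 945 ± 14.3 against 1492 ± 113 CPM (SD, n = 3 each). Its labels did not overlap, but it did not pass the test (log2 fold change 0.66, edgeR adjusted p = 0.831).

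Setd3, an actin histidine methyltransferase gene, had 39, 23 and 35 against 62, 27 and 31 reads at chr12:108157753-108165172. Ano3, of the anoctamin membrane protein family, had 4, 31 and 30 against 28, 33 and 37 reads at chr2:110738770-110795071. The library labelled WT replicate 1 stood far below the other 5 for this circle. Zfx, an X-linked zinc-finger transcription factor gene, had 31, 32 and 16 against 24, 26 and 20 reads at chrX:94098282-94102380. Ube2d2a, a ubiquitin-conjugating enzyme gene, had 17, 18 and 24 against 22, 25 and 26 reads at chr18:35793464-35801367. The plot of reads per library shows the circles named here, which are 10 of the 12.

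**Figure D1:**
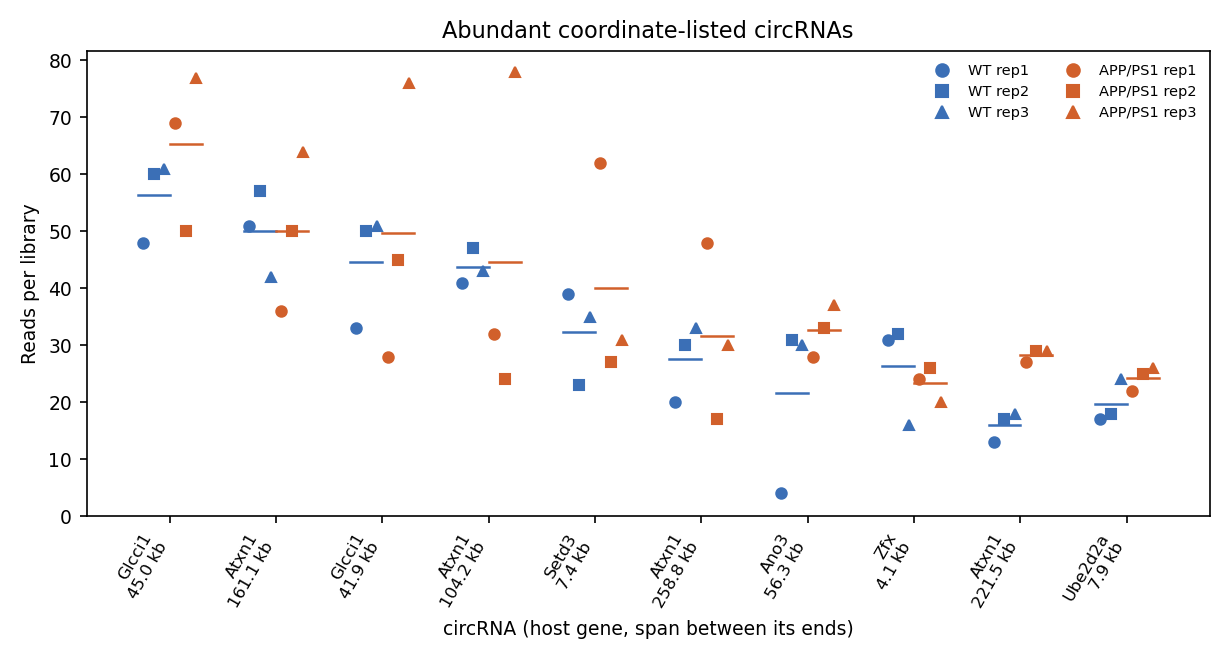
Reads per library (y axis) of 10 of the 12 most abundant coordinate-listed circRNAs (x axis: host gene and span between the ends); blue points are libraries labelled WT and orange points libraries labelled APP/PS1, the marker gives the replicate and the bar is the mean of 3 libraries. The labels overlap for most circles, and Ano3 has 4 reads in the library labelled WT replicate 1 against 28 to 37 in the other libraries.

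The distance between the ends of a circle covered 4 orders of magnitude. Spans ran from 101 bases upward with a median of 25840 (quartiles 7419 and 106916), 13 circles spanned under 1000 bases, and 73 (28.4%) spanned over 100000 bases. Spans between 50000 and 100000 bases numbered 26, and spans between 100000 and 150000 bases numbered 45. A span is genomic and includes introns that the mature circle need not contain, so it is not the length of the RNA. Wider circles had slightly more reads, with a Spearman rho of 0.22 across all of them (a description, since circles share hosts and libraries). The median was 2.67 reads per library in the 65 circles of shortest span and 3.5 in the 65 of longest span.

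Presynaptic genes were among the hosts of the widest circles. Nrxn3, a presynaptic adhesion receptor gene, had a circle of 345989 bases at chr12:89187021-89533010 with 6, 2 and 3 against 1, 1 and 1 reads. Erc2, an active zone scaffold gene, had one of 276972 bases at chr14:28040342-28317314 with 22, 21 and 17 against 20, 15 and 31 reads, and the Atxn1 circle at chr13:45697820-45956575 spanned 258755 bases. Of these 3, those of Erc2 and Atxn1 had at least 15 reads in every library.

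At the other end, the narrowest spans were small and patchy in their reads. Syt1, the calcium sensor of synaptic vesicle release, held the narrowest circle, of 101 bases, at chr10:108902214-108902315 with 0, 0 and 0 against 3, 2 and 5 reads. A circle of 122 bases on the Y chromosome (chrY:90793295-90793417) lay in no gene of the table and had 0, 0 and 10 against 0, 2 and 0 reads. Snhg14, a long non-coding host transcript of small nucleolar RNAs in an imprinted region, held one of 123 bases at chr7:59451255-59451378 with 0, 0 and 0 against 4, 3 and 10 reads. Spidr, a DNA repair scaffold gene, held one of 220 bases at chr16:16037489-16037709 with 5, 0 and 4 against 0, 2 and 0 reads. None of these 4 had a read in all 6 libraries.

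Nearly all circles lay within a single gene. Both ends fell inside a RefSeq GRCm38.p6 gene for 254 circles (98.8%), which was protein-coding for 252 and the non-coding Snhg14 for 2. Of the other 3, chr17:13548295-13568883 overlapped 2700054A10Rik with 0, 1 and 2 against 6, 6 and 4 reads, chr6:99435215-99651791 overlapped Eif4e3 with 4, 5 and 1 against 1, 1 and 3 reads, and the Y-linked circle above overlapped no gene. A strand could be read for the hosts of 191 circles, and all 191 circles lay on the strand of their host. The circles came from 201 host genes on all 19 autosomes and both sex chromosomes, with 34 circles on chromosome 1 and 4 each on X and Y.

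Hosts were long genes. Their median length was 151060 bases against 17146 bases for the 21900 protein-coding genes of the table, and 194 of the 201 hosts exceeded the latter. A circle spanned a median of 20.3% of its host (quartiles 6.44% and 38.4%). Its 5′ end lay a median of 36.1% along the gene, and with genes cut into 4 equal parts, 87, 81, 62 and 24 circles began in the parts from first to last. The 3′ end fell in these parts for 10, 46, 116 and 82 circles. No 5′ end lay within 100 bases of the annotated start of its gene's full extent and no 3′ end within 100 bases of its end. The histograms of span and of end position show both patterns.

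**Figure D2:**
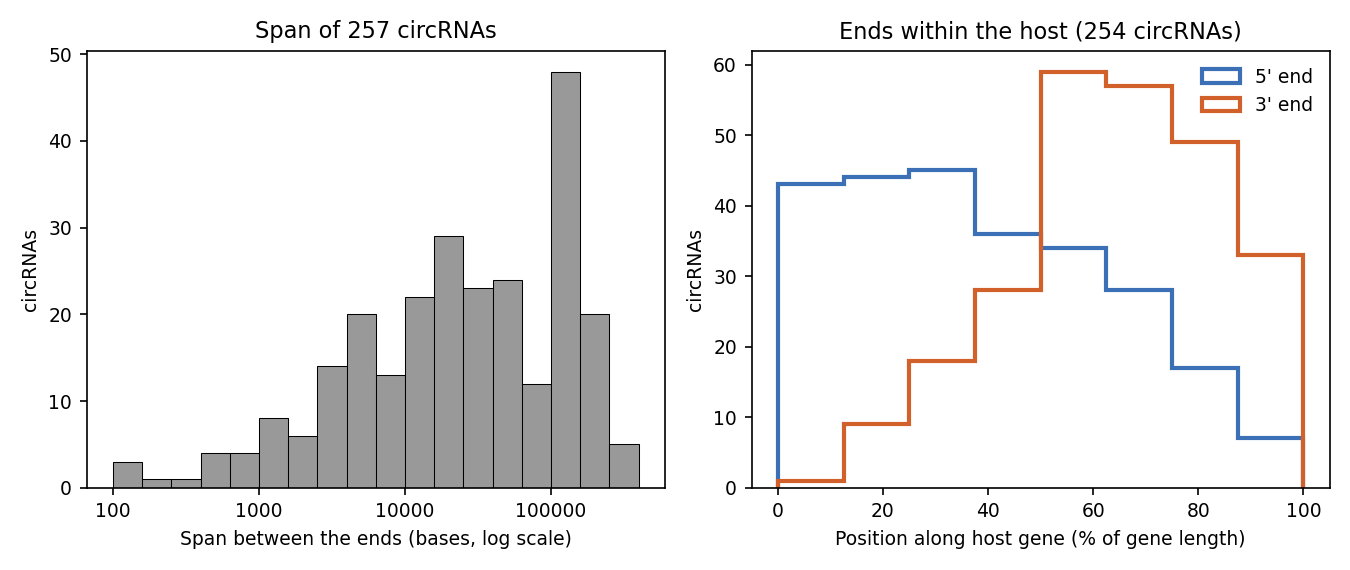
Left, the number of circRNAs (y axis) by span between the ends in bases (x axis, log scale) for all coordinate-listed circles; right, the number of circRNAs (y axis) by position of the 5′ end (blue) and the 3′ end (orange) along the host gene in percent of its length (x axis) for those with a host. The fullest bin of span lies just above 100000 bases, 5′ ends are most frequent in the first of 4 equal parts of the gene (87) and 3′ ends in the third of them (116).

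Of the 201 hosts, 171 gave 1 coordinate-listed circle and 30 gave 2 or more, together 83 circles. The numbered circRNAs were not placed in genes. Counts, sums and shares per host here and below therefore cover coordinate-listed circles only. There were 20 hosts with 2 circles, 4 with 3, 3 with 4, 2 with 5 and 1 with 9. Among the 83, 63 circles shared an end exactly with another circle, in 23 of the 30 hosts, and allowing 5 bases added none. The shared end was the 5′ end for 60 circles, at 24 places, and the 3′ end for 9 circles, at 4 places, with 6 circles sharing both. Circles of 1 host that start at 1 splice site are not independent measurements, and they are described below host by host.

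Glcci1 and Atxn1 each had 1 start with several ends. All 5 Glcci1 circles began at chr6:8537816, 28217 bases after the gene start, and spanned 20770 to 53849 bases, with 754 reads in all. The host sum was 101, 121 and 134 against 114, 108 and 176 reads, 7033 ± 225 against 6950 ± 1820 CPM (SD, n = 3 each). The 2 circles given above held most of these reads, and the others, chr6:8537816-8558586, chr6:8537816-8573298 and chr6:8537816-8591665, had 1 to 13 reads in a library. All 4 Atxn1 circles began at chr13:45956575, 8416 bases after the gene start on the minus strand, and spanned 104248 to 258755 bases. They had 125, 151 and 136 against 143, 120 and 201 reads, 8200 ± 890 against 8093 ± 1969 CPM (SD, n = 3 each), and no Atxn1 circle held over 41.7% of the host's reads in any library. The map of circles along 6 hosts shows these shared starts.

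**Figure D3:**
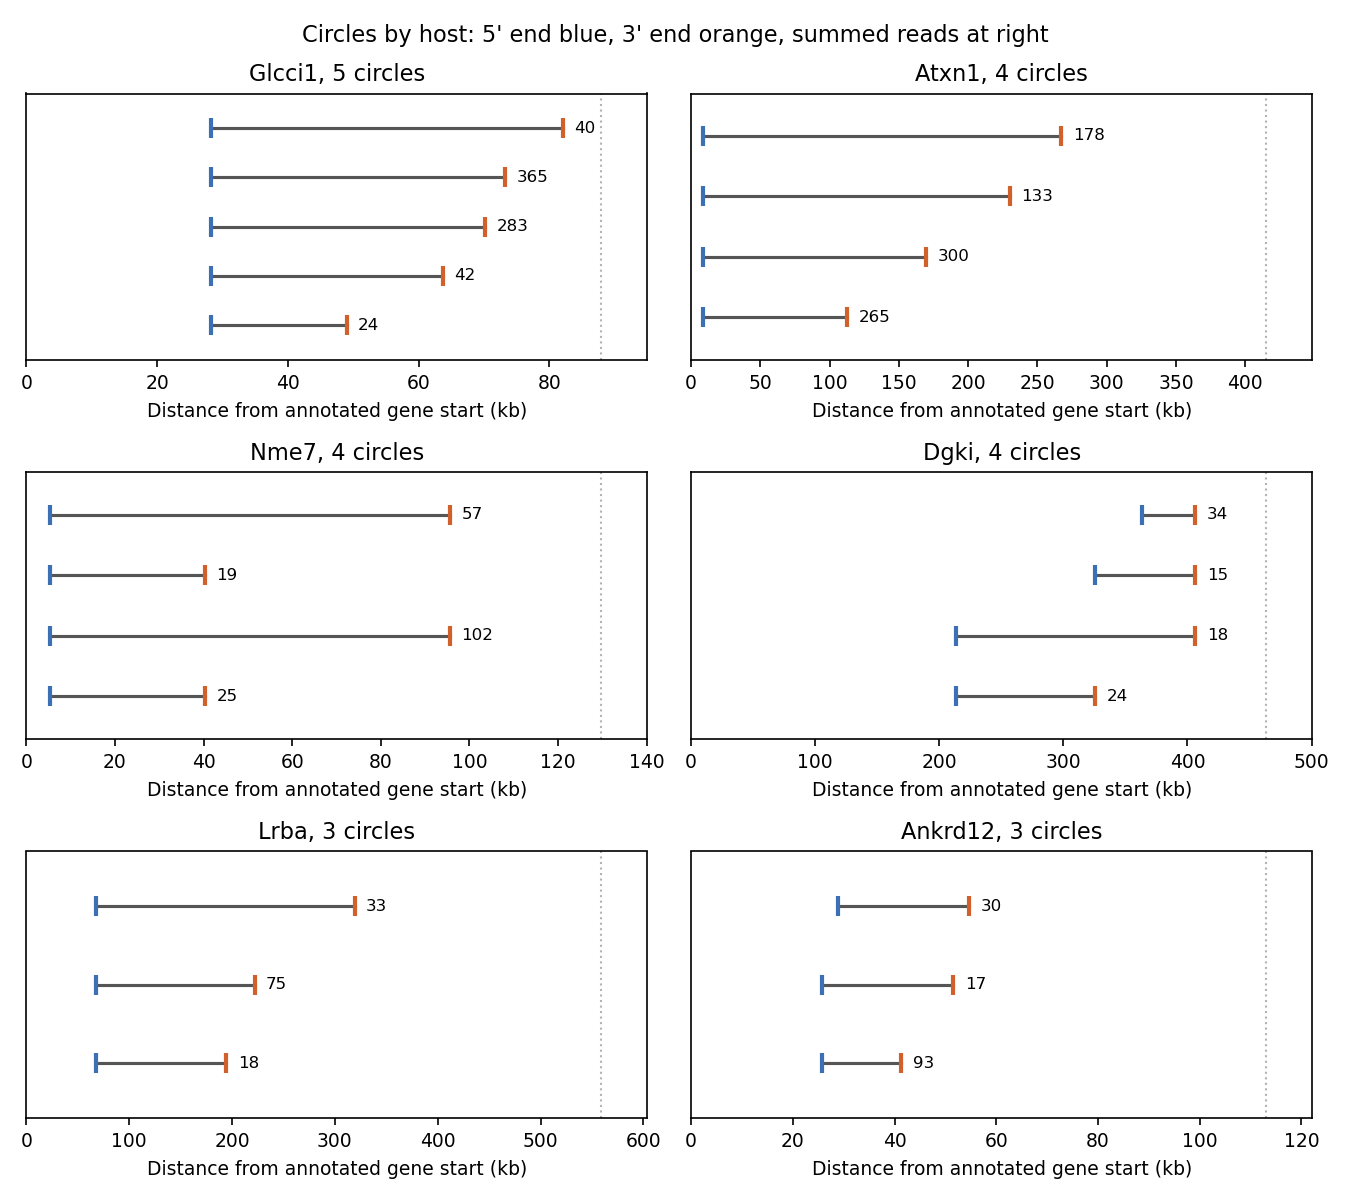
Circles of 6 host genes drawn to scale as lines from 5′ end (blue) to 3′ end (orange) against the distance from the annotated gene start in kb (x axis), 1 line per circle, with reads summed over 6 libraries at the right and the annotated gene end as a dotted line. In Glcci1, Atxn1 and Lrba all circles begin at 1 place and end at several, and in Dgki 3 of 4 circles end at 1 place.

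Dgki, a diacylglycerol kinase gene, was the host where ends were shared more than starts. There, 3 of 4 circles ended at chr6:36894775 on the minus strand, with 7, 12 and 0 against 7, 7 and 1 reads for the one from chr6:36937400. The circle from chr6:36975247 had 3, 2 and 0 against 5, 2 and 3 reads, and the circle from chr6:37087694 had 0, 3 and 5 against 7, 0 and 3. The remaining circle, chr6:36975146-37087694, had 2, 7 and 4 against 6, 3 and 2 reads. No Dgki circle was read in all 6 libraries except this last.

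Lrba, a gene of the BEACH-domain family of vesicle trafficking proteins, gave 3 circles that all began at chr3:86291426. They had 2, 5 and 5 against 0, 1 and 5 reads (to chr3:86417996), 8, 30 and 17 against 4, 1 and 15 (to chr3:86445473) and 8, 12 and 5 against 0, 1 and 7 (to chr3:86542711). In the last pair of circles the library labelled APP/PS1 replicate 3 stood among the WT-labelled libraries while the other two APP/PS1-labelled libraries stood below them. Ankrd12, a gene for a corepressor-binding ankyrin protein, gave 3 circles with 140 reads, 66.4% of them from chr17:66037492-66053091 (13, 6 and 17 against 21, 15 and 21 reads). Stk39, the gene of the SPAK kinase that acts on chloride cotransporters, gave 3 with 99 reads, and its narrow circle chr2:68390913-68392252 had 0, 0 and 4 against 4, 6 and 9. Rims2, an active zone gene, gave 3 with 32 reads. Of the hosts with 2 circles, Erc2 had the most reads (201), and both of its circles began at chr14:28040342. Uty, a Y-linked gene, had circles from chrY:1158634 to chrY:1151947 with 2, 4 and 9 against 3, 3 and 3 reads and to chrY:1152768 with 3, 2 and 7 against 7, 10 and 11.

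The level of a circle was next set beside the level of its host gene. All 201 hosts were in the gene table, 197 of them at a mean of 1 FPKM or more, and their median was 10.8 FPKM against 4.45 FPKM over all rows. Across the 218 circles that were tested between labels and held by a gene, the Spearman rho of mean CPM with mean host FPKM was 0.12. In single libraries it ran from 0.0569 to 0.21, with 1 value per host it was 0.14 (173 hosts), and among the 78 circles with at least 5 reads in 3 libraries it was 0.0599. These correlations are descriptions across circles, which share libraries, hosts and a narrow range of counts. With circles split into 4 groups by host FPKM, from lowest to highest, the median was 3.17, 3.42, 3.92 and 3.33 reads per library. Circle reads thus varied little with the host's listed level in these tables.

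CPM of a circle per FPKM of its host, over the 215 circles whose host had 1 FPKM or more, had a median of 20.6 (quartiles 8.73 and 39.8) and ran from 0.804 to 987. The circle's value is not per length and the host's is, so the ratio ranks circles and is not a share of transcripts. The 2 main Glcci1 circles led with 987 ± 510 and 810 ± 496 (SD over 6 libraries). Host Glcci1 was listed at 2.44, 9.14 and 2.40 FPKM under the WT label and 9.33, 2.93 and 2.68 under the APP/PS1 label. The pair of libraries with high Glcci1 FPKM did not stand above the others in its circles, which had 101, 121 and 134 against 114, 108 and 176 reads. Zfx came next with 447 ± 350, and its host gene stood at 4.99, 1.59 and 2.02 against 5.14, 5.15 and 5.93 FPKM. Gstcd followed with 284, from a circle at chr3:133062565-133085025 with 2, 8 and 6 against 10, 8 and 9 reads on a host of 1.39 FPKM. The main Atxn1 circle had 187, and a circle of Asph, an aspartyl hydroxylase gene, had 181 (chr4:9635900-9639347, with 11, 25 and 26 against 21, 16 and 28 reads).

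The lowest ratios came from hosts of high FPKM, neuronal genes among them. Since circle reads varied little with host FPKM, low ratios at such hosts follow largely from the division. The division likewise raises ratios at hosts of low FPKM, such as Gstcd and Zfx. Nell2, a secreted neuronal protein gene at 154.5 FPKM, held a circle at chr15:95296158-95435430 with 3, 5 and 2 against 1, 0 and 2 reads, a ratio of 0.804. Ppp3ca, the gene of a calcineurin catalytic subunit, at 120.0 FPKM, held chr3:136797725-136921917 with 4, 3 and 2 against 5, 0 and 0 reads, a ratio of 1.13. The Syt1 host stood at 96.3 FPKM, and its circles had ratios of 0.819 and 2.48. The scatter of circle level against host level shows these examples.

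**Figure D4:**
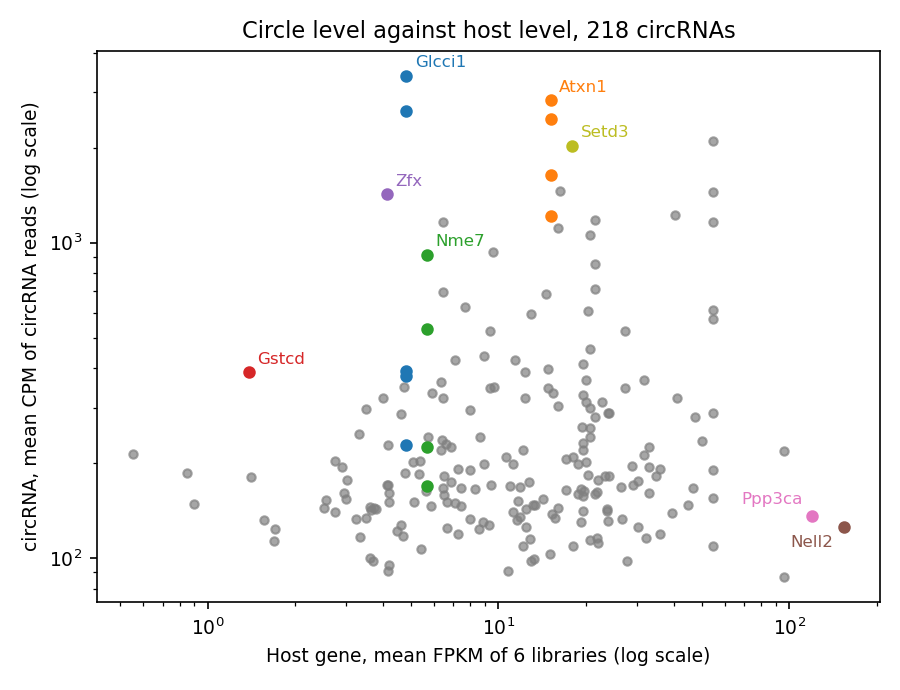
Mean CPM of circRNA reads of each circle (y axis, log scale) against mean FPKM of its host gene (x axis, log scale) over 6 libraries, 1 point per circle; coloured points are circles of the named hosts. Circles of 1 host stand in a column at its FPKM, Glcci1 and Zfx lie high above hosts under 5 FPKM, and Nell2 and Ppp3ca lie low at hosts above 100 FPKM.

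The next comparison asked which of the circles differ between the WT and the APP/PS1 label. In bulk tissue, fewer cells of a type and less RNA per cell cannot be told apart. A minimum of 2 reads in 3 or more libraries left 220 circles, which entered edgeR's quasi-likelihood test on all 2132 circRNAs, and put aside 37. At an adjusted p under 0.05, 1 circle passed, which was also the single call among all circRNAs tested (background 0.0469%). It came from Nme7, which belongs to the nucleoside diphosphate kinases.

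The Nme7 circle chr1:164312852-164403077 had 4, 4 and 4 reads under the WT label and 40, 40 and 10 under the APP/PS1 label. It rose from 241 ± 39.5 to 1590 ± 936 CPM (SD, n = 3 each), a log2 fold change of 2.71 with a standard error of 0.53 (edgeR adjusted p = 0.0152, higher in 3 of 3 libraries). Both high libraries and the lower one stood above every WT-labelled library. The call was lost when WT replicate 1 was left out (edgeR adjusted p = 0.386), and likewise for WT replicate 2 (0.0932) and WT replicate 3 (0.223). It was also lost when APP/PS1 replicate 2 was left out (0.109). Log2 fold changes in these 4 fits ran from 2.40 to 2.82. It held without APP/PS1 replicate 1 or 3. With WT replicate 3 and APP/PS1 replicate 2 both left out, the log2 fold change was 2.33 and the adjusted p = 0.603.

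Nme7 gave 4 circles, made from 2 starts 3 bases apart (chr1:164312852 and chr1:164312855, as deposited) and 2 ends (chr1:164347879 and chr1:164403077). The other three did not pass and had higher mean CPM under the APP/PS1 label. For chr1:164312852-164347879 reads were 2, 0 and 1 against 12, 6 and 4 (log2 fold change 2.54, edgeR adjusted p = 0.801). For chr1:164312855-164347879 they were 1, 0 and 0 against 8, 6 and 4 (3.57, adjusted p = 0.662). For chr1:164312855-164403077 they were 9, 4 and 1 against 12, 18 and 13 (1.39, adjusted p = 0.830). In reads the labels were apart for all of these, and in CPM they were apart for the first pair and overlapped for the last. Leaving out WT replicate 1 gave the highest log2 fold changes of these 3 circles, at 3.53, 5.59 and 2.41. The lowest were 1.99 (without WT replicate 2), 3.06 and 0.86 (both without WT replicate 3).

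Summed over the 4 circles, Nme7 had 16, 8 and 6 against 72, 70 and 31 reads, 636 ± 443 against 3049 ± 1264 CPM (SD, n = 3 each), a ratio of means of 4.79. By start, the sums were 15 against 112 reads for chr1:164312852 and 15 against 61 reads for chr1:164312855. By end, they were 4 against 40 reads for chr1:164347879 and 26 against 133 reads for chr1:164403077. Every start and every end thus had more reads under the APP/PS1 label, by ratios of mean CPM of 6.45, 3.25, 7.84 and 4.29 in that order.

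The Nme7 gene itself was listed at 2.84, 2.74 and 3.41 FPKM under the WT label and 9.39, 9.23 and 6.53 under the APP/PS1 label, a ratio of means of 2.80 (limma log2 fold change 1.22, adjusted p = 0.0723, 0.0205 to 0.512 over the alternatives). Set against the host, the summed circles gave 402, 164 and 93.2 CPM per FPKM against 392, 420 and 244. These ratios overlapped between the labels, so a change in circles beyond that of the gene was not shown at this depth. The paired plot shows the fold changes of all tested circles and the Nme7 reads.

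**Figure D5:**
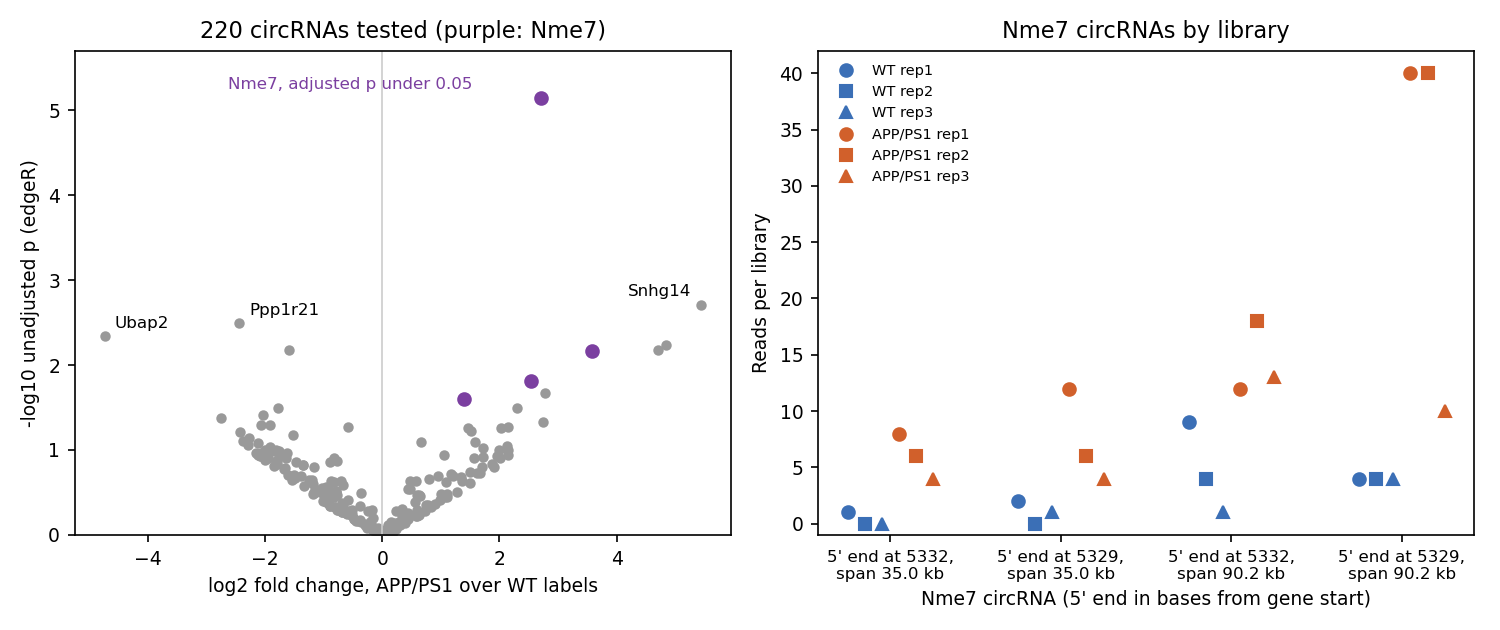
Left, -log10 of the unadjusted edgeR p (y axis) against the log2 fold change of APP/PS1 over WT labels (x axis) for the 220 circles tested, with the 4 Nme7 circles in purple; right, reads per library (y axis) of the 4 Nme7 circles (x axis: 5′ end in bases from the gene start, and span), blue for WT and orange for APP/PS1 labels, 1 marker per library. Fitted fold changes of circles at 0 in a label depend on the fit's prior count. The top Nme7 circle has 4 reads in each WT-labelled library and 10 to 40 in the APP/PS1-labelled ones.

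Across the 220 circles the median log2 fold change was -0.18, against 0.0013 over all 2132, and 95 were positive and 125 negative. At an unadjusted p under 0.05, 10 circles (4.55%, background 3.05%) were higher and 6 (2.73%, background 2.25%) were lower, and 4 of the 10 were the Nme7 circles. Without the libraries labelled WT replicate 3 and APP/PS1 replicate 2, the counts were 10 higher (background 2.86%) and 12 lower (background 2.39%), with none past the adjusted threshold. The labels did not overlap in CPM, with the APP/PS1 label above, for 17 circles (7.73%, background 6.52%), and with it below for 22 (10%, background 6.57%). Circles scarce in 1 label pass the count filter only through the other, so these shares describe the circles that could be tested.

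Beside Nme7, the higher circles of smallest unadjusted p were low in reads. The 123-base Snhg14 circle, at 0 in every WT-labelled library, had 17 reads under the APP/PS1 label (edgeR adjusted p = 0.662). With 0 set at 3 reads over the group, this was 5.03-fold higher. Such folds leave out the counting error of the other label's reads and the spread among libraries, so they are not lower limits. Pknox2, a homeobox transcription factor gene, had 0, 0 and 0 against 6, 2 and 3 reads at chr9:36923583-37083276, 3.26-fold higher by the same setting. The narrowest circle, of Syt1, was 2.96-fold higher by it (both edgeR adjusted p = 0.662). Cacna1a, the gene of the P/Q-type calcium channel, had 1, 0 and 1 against 13, 3 and 2 reads at chr8:84556703-84612412 (log2 fold change 2.78, edgeR adjusted p = 0.823), and without the library labelled APP/PS1 replicate 1 its log2 fold change was 1.60. Mycbp2, a large E3 ubiquitin ligase gene, had 1, 1 and 1 against 3, 11 and 4 reads at chr14:103260195-103291362. Rims2 had 1, 0 and 0 against 3, 3 and 4 reads at chr15:39274975-39345620. None of these passed the adjusted threshold. Each reached 2 reads only in libraries labelled APP/PS1, and so passed the count filter through the label where it was higher.

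The lower circles were led by Ppp1r21, a gene for an endosomal protein, with 5, 10 and 22 reads under the WT label and 0, 7 and 0 under the APP/PS1 label at chr17:88565640-88583981 (log2 fold change -2.45, edgeR adjusted p = 0.662, and -1.83 without WT replicate 3). Without the library labelled APP/PS1 replicate 2 it was the one circle to pass (adjusted p = 0.00954), with both remaining APP/PS1-labelled libraries at 0. Ubap2, a ubiquitin-associated protein gene, had 3, 4 and 2 against 0, 0 and 0 reads at chr4:41226279-41229848. With 0 set at 3 reads over the group, this was 3.38-fold lower, which again is not a lower limit. Both of the wider Lrba circles given above were among the lower ones, to chr3:86445473 with a log2 fold change of -1.59 and to chr3:86542711 with -1.78 (edgeR adjusted p = 0.662 and 0.831). With single libraries left out the first ran from -1.06 (without WT replicate 2) to -2.94 (without APP/PS1 replicate 3) and the second from -1.19 (without APP/PS1 replicate 1) to -3.90 (without APP/PS1 replicate 3). Rnf141, a RING finger gene, had 8, 1 and 10 against 1, 1 and 3 reads at chr7:110821253-110837270. Tfdp2, the gene of a dimerisation partner of E2F factors, had 3, 3 and 2 against 0, 1 and 0 at chr9:96232681-96287722. Next came Rere, an atrophin-family corepressor gene, with 6, 2 and 8 against 2, 2 and 0 reads at chr4:150439342-150570296. Apart from Ppp1r21 in that 1 setting, none of these passed.

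No read in any library was found for 7 circles under the WT label (2.72%, background 1.02% of the 2246 circRNAs) and for 8 under the APP/PS1 label (3.11%, background 0.935%). These circles have fewer reads than the numbered class, and the part of that in the shares was not tested. Besides those named, the WT label lacked circles of Strip2 (10 reads under the other label), Ccdc171 (10), Enox1 (9) and Dcun1d4 (9). Among those the APP/PS1 label lacked were circles of Hdac9 (12 reads), Dlg1 (11), Atad2 (10), Pdpr (10), Rmdn1 (8) and Caprin1 (8). Of the 8 circles at 0 under the APP/PS1 label, 1, that of Ubap2, had reads in all 3 WT-labelled libraries (0.389% of the circles, background 0.445%). Of the 7 at 0 under the WT label, 5 had reads in all 3 APP/PS1-labelled libraries (1.95%, background 0.49%). Of these 15 circles, 4 passed the count filter.

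Host genes were compared by label in the same way. None of the 197 hosts tested passed an adjusted p of 0.05 by limma (background 0.0219%), and at an unadjusted p under 0.05, 9 were higher (4.57%, background 2.85%) and 6 were lower (3.05%, background 3.83%). Without the library labelled WT replicate 1, Zfx passed (log2 fold change 1.19, limma adjusted p = 0.0350), and without the library labelled APP/PS1 replicate 3, Nme7 passed (1.37, adjusted p = 0.0205). The Zfx circle had 31, 32 and 16 reads against 24, 26 and 20, so its libraries overlapped between labels. Ppp1r21 was listed at 22.4 ± 4.15 against 16.7 ± 2.41 FPKM and Lrba at 7.01 ± 0.732 against 5.83 ± 0.653 FPKM (SD, n = 3 each), neither past the adjusted threshold (limma adjusted p = 0.731 and 0.741).

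By function, hosts known for circles in brain were represented by 10 of 46 listed genes with 23 circles and 799 reads. Of the 18 tested, 1 was called (background 0.0469%), and 5 were higher (background 3.05%) and 0 lower (background 2.25%) at an unadjusted p under 0.05. Of these 5, 4 were the Nme7 circles, which share their ends and are not independent, and the other was that of Rims2. The host lists were drawn up with earlier results of these data known, and this one holds Nme7. Its counts beside the background are therefore a description and no test. Presynaptic active zone and vesicle genes had 6 of 40 as hosts, with 15 circles and 515 reads, of which 12 were tested, 2 were higher at that level (Syt1 and Rims2, background 3.05%) and 0 were lower (background 2.25%). Both passed the count filter through the APP/PS1 label alone, with Syt1 at 0 and Rims2 at 1, 0 and 0 reads under the WT label. Their count beside the background is therefore a description and no test. These lists share hosts, among them Erc2, Rims1 and Rims2. The Erc2 circle chr14:28040342-28141381 had 16, 9 and 11 against 10, 13 and 16 reads, and Rims1 gave chr1:22533398-22596584 with 2, 5 and 2 against 5, 5 and 2. The postsynaptic list had 3 of 52 genes as hosts, each with 1 circle: Gria2, an AMPA receptor subunit gene (6, 5 and 1 against 3, 8 and 1 reads at chr3:80726831-80741198), Magi2 and Dlg1, both scaffold genes. Of these 3, 2 were tested and neither reached an unadjusted p under 0.05 (background 3.05% higher and 2.25% lower).

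Ion channel genes had 5 of 44 as hosts with 6 circles, of which 5 were tested. At an unadjusted p under 0.05, 1 circle, of Cacna1a, was higher (background 3.05%) and 0 were lower (background 2.25%). The Cacna1a circle passed the count filter through the APP/PS1 label alone, so this count is a description and no test. Kinase and phosphatase genes had 4 of 72 as hosts with 13 circles and 822 reads, and none of 12 tested reached that level in either direction (background 3.05% higher and 2.25% lower). Ntrk3, the receptor of neurotrophin-3, had 1, 10 and 4 against 8, 13 and 8 reads at chr7:78356026-78462942. Ubiquitin system genes had 6 of 63 as hosts with 8 circles. Of 8 tested, 1, of Mycbp2, was higher at that level (background 3.05%) and 0 were lower (background 2.25%). The Mycbp2 circle likewise passed the count filter through the APP/PS1 label alone. Arih1, an E3 ligase gene, had the most reads on this list, 2, 7 and 5 against 8, 5 and 10 at chr9:59426122-59454469. The list leaves out Ube2d2a, whose circle had more reads, and Rnf141 and Ubap2, whose circles were among the lower ones above. Its counts thus do not cover every ubiquitin-related host. The chromatin and transcription list had 11 of 104 genes as hosts with 14 circles and 569 reads. None of 12 tested reached an unadjusted p under 0.05, beside the same background shares. Its most abundant circle was that of Setd3, an actin histidine methyltransferase gene, with 39, 23 and 35 against 62, 27 and 31 reads. The list thus reaches beyond chromatin, and it leaves out the transcription factor genes Zfx and Pknox2. Nfib, a nuclear factor I gene, had 9, 15 and 6 against 5, 8 and 5 reads at chr4:82350388-82498769. The median log2 fold changes were 0.35 for the brain and presynaptic lists, -0.43 for the 2 postsynaptic circles tested, -0.16 for ion channels, 0.01 for kinases, -0.21 for the ubiquitin system and -0.35 for chromatin, beside 0.0013 over all circRNAs tested.

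Genes that regulate back-splicing were read from the gene table. Of 27 tested, none passed (limma, background 0.0219%), and at an unadjusted p under 0.05, 1 was higher (background 2.85%) and 1 was lower (background 3.83%). Adarb1, an RNA-editing enzyme gene, was lower by limma (log2 fold change -0.61, adjusted p = 0.0723), and Nova1, a neuronal splicing factor gene, was higher with 0.18 (adjusted p = 0.718). Qk, the gene of a splicing factor known to promote circles, had 0.20 (limma adjusted p = 0.781) and Adar had -0.06 (adjusted p = 0.931). One gene of this list was itself a host. Rbfox3, a neuronal splicing factor gene, held a circle at chr11:118610158-118811416 with 7, 5 and 4 against 3, 0 and 4 reads (log2 fold change -1.36, the 1 circle of this list).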

How the data were processed

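Per the labels, RNA was extracted with Trizol from frozen hippocampus and an Illumina TruSeq kit was used. The circRNA tables deposited by the authors hold whole-number read counts. The tool that called circles is not given here. The gene tables deposited by the authors were read as FPKM, since no header names the unit and StringTie is listed with FastQC, HISAT2 and mm9, per the submitters' processing notes. The coordinates, though, lie in genes of GRCm38.p6, which was used.

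CPM was computed over all circRNA reads. A host is the RefSeq gene that holds both deposited ends, protein-coding and then shortest preferred, strand ignored. circRNAs with at least 2 reads in 3 libraries were tested with edgeR 4.0.16 (robust quasi-likelihood, TMM), and genes with at least 1 FPKM in 3 libraries (13700) with limma 3.58.1 (trend, robust) on log2(FPKM + 1), which understates changes of low genes (R 4.3.3). Benjamini-Hochberg adjustment ran over all features tested, with a threshold of 0.05. Both tests were tested on simulated data.

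Named are the 12 most abundant circles, the 8 of smallest p per direction, hosts with at least 3 circles, the 4 widest and narrowest spans, circles without a host, the 6 highest and lowest ratios to the host, circles at 0 in a label and up to 4 per host list. Not all of these are printed in full, and those of 3 genes are not reported here. A few circles were named after their values were seen: those with readable ends or a miRNA inside, and Erc2, Stk39 and Uty among hosts with several. The members and lists were chosen with earlier results of these data known. Alternatives were DESeq2 1.42.0, other scaling, filters and pseudocount, a replicate block, single libraries left out and 4 libraries. Total reads per library limit precision, and exact intervals at 95% cover counting error only.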

Additional observations from a re-analysis of the deposited data

How the results depend on the processing

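Of 16 fold changes named under 13 alternatives, 197 comparisons could be made, of which 191 kept their direction and side of the threshold, 5 lost the call, 1 gained it and 0 reversed. The 5 were all of the called Nme7 circle and the gain was that of Ppp1r21, both given in the report, and the causes were not tested. The count of circles called was 1 under other scaling, DESeq2, other filters and the replicate block, 0 to 1 with single libraries left out (0 without WT replicate 1, 2 or 3) and 0 in 4 libraries. At an unadjusted p it was 10 higher and 6 lower, and without a count filter 13 and 15. Host genes called were 0, with 0 to 1 when single libraries were left out, and 9 higher and 6 lower at an unadjusted p. With the replicate block 1 circle and 0 hosts were called, and 8 circles were higher and 5 lower at an unadjusted p. Same-numbered libraries deviated with correlations of -0.00735, 0.0393 and 0.0129 for circRNAs and 0.00983, -0.0561 and -0.0941 for genes. With 3 libraries per label these values cannot tell whether same-numbered libraries share a litter or batch. The correlation of circle with host, 0.121, was 0.0569 for WT replicate 1 alone and 0.21 for APP/PS1 replicate 1 alone. Circles detected in every library fell from 103 to 61 at 2 reads. Circles holding a few reads per library limit what could be detected by label.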
